A study of Mus musculus with 6 samples.

Results

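The Csmd1/Bmper nuclei are 188 of the 1826 filtered nuclei of uninjured mouse tibial periosteum, the connective tissue sheath on the outer surface of bone. They were chosen by counts of UMIs (unique molecular identifiers, 1 per captured transcript) in single nuclei. A nucleus was a member when its UMIs of Csmd1, Bmper, Tspan11, Ccbe1 and Hmcn2 summed to 4 or more. It also needed under 4 UMIs of Pi16, Dpp4, Opcml and Rorb together, under 4 of Luzp2, and 0 of Ptprc and Pecam1. Replicate 1 gave 35 members of 644 filtered nuclei, 5.43% (exact binomial 95% interval 3.81% to 7.48%), and replicate 2 gave 153 of 1182, 12.9% (11.1% to 15%). The shares differed between the replicates by more than these intervals, which cover counting error only. These values do not bound the share of the population. The series holds 8073 filtered nuclei of 13551 barcodes in 6 single-nucleus libraries. Uninjured periosteum and periosteum with hematoma at day 3 after an open, non-stabilized tibial fracture had 2 libraries each, and days 5 and 7 had 1 each. All mice were wild type, labelled C57BL6 (C57BL/6ScNj in the study's methods), and 12 weeks old, with males and females mixed. Each library pooled tibias of 4 mice (uninjured) or of 4 to 9 mice (fracture) with the marrow of uninjured bones flushed out. The replicates are therefore pools, and p-values measure the spread between these pools, which may be technical.

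The periosteum has an outer, fibrous layer rich in fibroblasts and an inner layer next to bone. The study located Pi16-expressing progenitors, its source of bone and cartilage cells after a fracture, in the fibrous layer. It found osteogenic cells with Runx2 in the inner layer. Fibroblasts make the collagens, proteoglycans and elastic fibers of the sheath, and those of different niches differ in the growth factor inhibitors and matrix proteins they secrete. The 5 marker genes have different roles. Csmd1 encodes a large membrane protein with complement-control domains, and Bmper a secreted protein that binds bone morphogenetic proteins (BMPs). Ccbe1 encodes a secreted protein needed for the processing of the lymphatic growth factor VEGF-C, Hmcn2 a giant extracellular matrix protein, hemicentin, and Tspan11 a membrane protein of the tetraspanin family. Pi16 and Dpp4, which the rule kept low, mark adventitial fibroblasts, the fibroblasts around vessels and in fascia that are regarded as progenitors.

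Members of replicate 1 held 66304 UMIs in all, at a median of 1304 per nucleus (range 524 to 5459), and those of replicate 2 held 794826, at a median of 3421 (range 508 to 25789). Nuclei that met the same rule at day 3 had medians of 3389 and 6436 UMIs, so depth differed between the groups as well as between the replicates. Levels are given as CPM, the UMIs of a gene summed over the nuclei of a library relative to all their UMIs, on the CPM scale. A count of 0 in the members allows a level of up to 45.3 CPM in replicate 1 and 3.79 CPM in replicate 2 (3 UMIs), so a low gene is measured well only in replicate 2. Whole libraries held 1499281 UMIs (uninjured replicate 1) to 29796296 (day 3 replicate 2). Both intronic and exonic reads were counted, which gives long genes more UMIs, and levels are therefore compared between nuclei and not between genes. Barcodes shared by a pair of libraries numbered 18 over all pairs, at most 7 in a pair, and 0 between nuclei that met the rule.

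Csmd1 supplied most of the UMIs that made a nucleus a member. It spans 1643 kb on the minus strand of chromosome 8 (GRCm38, 15892537 to 17535586). Csmd1 held 85.9% of the UMIs of the 5 markers in members of replicate 1 and 67.9% in replicate 2. Members with at least 1 Csmd1 UMI made up 85.7% and 80.4%, and those with a Bmper UMI 25.7% and 48.4%. Tspan11 was found in 17.1% and 34.0% of members, Ccbe1 in 14.3% and 30.1%, and Hmcn2 in 37.1% and 33.3%. UMIs of 2 or more of the markers were found in 60% of members in replicate 1 and in 72.5% in replicate 2, and UMIs of 3 or more in 20.0% and 37.9%. Csmd1 alone would have been enough for 71.4% and 68.0% of members, and Bmper alone for 5.71% and 22.2%. The sum of the 5 markers had a median of 8 UMIs in replicate 1 and 14 in replicate 2, and reached 166 and 519. Csmd1 stood at 8736 CPM (exact Poisson 95% interval 8038 to 9478) in members of replicate 1 and at 4358 CPM (4213 to 4505) in replicate 2. Since these genes chose the members, their values are a description.

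At the threshold, 4 nuclei of replicate 1 and 28 of replicate 2 met the rest of the rule with a sum of 3 UMIs, and 3 and 14 nuclei entered with a sum of 4. In replicate 2 the nuclei with a sum of 3 had a median of 1097.5 UMIs and 17.9% of them had a UMI of Pdgfra, a receptor carried by most fibroblasts. Those with a sum of 4 had a median of 1878.5 UMIs and 7.14% had a Pdgfra UMI. Of the nuclei with a sum of 4 or more, 5 in replicate 1 and 48 in replicate 2 were left out for their Pi16, Dpp4, Opcml and Rorb UMIs. Luzp2 removed 2 and 8, and Ptprc or Pecam1 removed 3 and 23.

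The name of fibroblast held for most members of replicate 2 and for about as many members of replicate 1 as not. A nucleus was counted with the class whose marker list gave it the most UMIs. The 15 general fibroblast genes, which include the collagens Col1a1 and Col3a1, the proteoglycan Dcn and the limb mesenchyme factor Prrx1, were in front in 18 of 35 members of replicate 1 and in 114 of 153 of replicate 2. Their summed level was 3975 CPM in members of replicate 1 and 8895 CPM in replicate 2. For the Pi16 nuclei, chosen by a rule of the same form from Pi16, Dpp4, Opcml and Rorb, fibroblast genes were in front in 22 of 24 and in 79 of 86 nuclei, at 8422 and 11502 CPM. Among other classes, Schwann cell markers were in front in 4 and 6 nuclei, pericyte and smooth muscle markers in 3 and 7, and myogenic markers in 0 and 9. In 7 and 3 members lists were tied. Endothelial markers were in front in 0 nuclei of both libraries, and immune markers in 0 and 1. After each nucleus was thinned to 500 UMIs, Pdgfra was found in 5.71% of members of replicate 1 and 22.9% of replicate 2, and Col3a1 in 22.9% and 41.2%. In nuclei with 4 or more Pecam1 UMIs, which should lack both genes, the thinned shares were 0% and 0.571% for Pdgfra and 0% and 2.29% for Col3a1. Without thinning, Pdgfra was found in 25.7% and 47.1% of members and in 1.37% and 2.86% of Pecam1 nuclei, whose median depths of 3010 and 5040 UMIs exceeded those of members.

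A part of the members carried the genes of other cells, and these nuclei were described apart from the rest. The grouping was made after the values had been seen. The Pax7 group held the nuclei with 2 or more UMIs of Pax7, Chodl and Megf10 together, 5 members in replicate 1 and 18 in replicate 2. Pax7 is the transcription factor of muscle satellite cells, the stem cells of skeletal muscle, and Chodl and Megf10 are known to be expressed in them. The Schwann group held the 4 and 6 members whose largest marker list was that of Schwann cells, the glia that wrap peripheral nerves. The remaining members numbered 26 and 129.

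**Figure D1:**
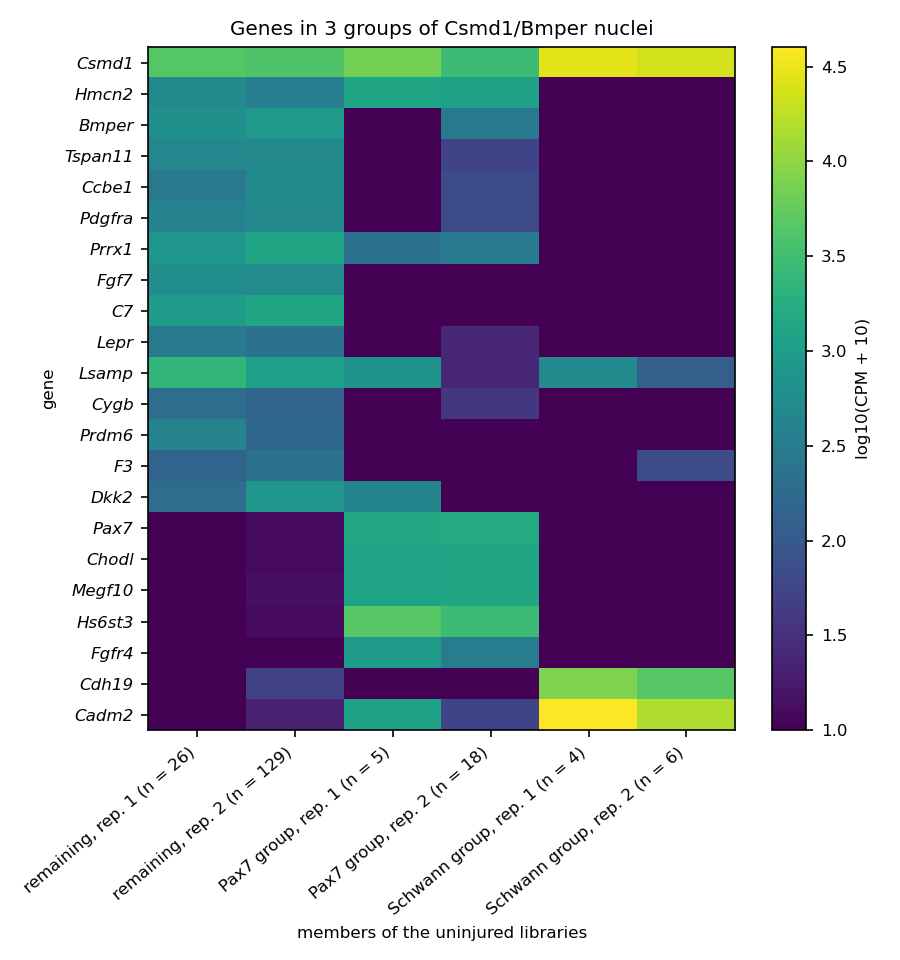
Level of 22 genes, as log10(CPM + 10), in the remaining members, the Pax7 group and the Schwann group of each uninjured library; n is the number of nuclei. Csmd1 is high in all 3 groups, Fgf7 and C7 are at 0 outside the remaining members, and Pax7, Chodl, Megf10 and Hs6st3 are found almost wholly in the Pax7 group. Pax7, Chodl and Megf10 define that group.

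The Pax7 group carried Csmd1 and Hmcn2 but little of the other markers. Csmd1 stood there at 6999 CPM in replicate 1 and 2908 CPM in replicate 2, and Hmcn2 at 1326 and 1128 CPM. Bmper stood at 0 and 304 CPM, and Pdgfra had UMIs in 0 of 5 and 1 of 18 nuclei. General fibroblast genes were nevertheless in front in 2 of 5 and 7 of 18 nuclei of the Pax7 group. Fgfr4, a fibroblast growth factor receptor of the muscle lineage, was at 901 and 318 CPM in this group and at 0 in the remaining members of both libraries. The Schwann group had the highest Csmd1 levels, 28857 and 22517 CPM, with 0 UMIs of Bmper, Tspan11, Ccbe1, Hmcn2 and Pdgfra. Its 4 nuclei in replicate 1 held 47.9% of the Csmd1 UMIs of all members, and its 6 nuclei in replicate 2 held 11.5%. Cdh19, a cadherin of Schwann cell precursors and a marker that set this group, stood at 8126 and 4594 CPM in it. In the remaining members Cdh19 stood at 0 and 41.2 CPM.

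The remaining members had Csmd1 at 4482 CPM in replicate 1 and 4045 CPM in replicate 2, closer to each other than the levels over all members. Pdgfra stood at 398 and 487 CPM in them and had UMIs in 9 of 26 and 71 of 129 nuclei. Fibroblast genes were in front in 16 of 26 and 107 of 129. Bmper was at 636 and 855 CPM and Tspan11 at 451 and 481 CPM, and these nuclei held 96.8% of the Bmper and 99.2% of the Tspan11 UMIs of uninjured members. Fgf7, a growth factor for epithelial cells made by fibroblasts, was at 583 and 535 CPM, and C7, the terminal complement component, at 981 and 1306 CPM, and all UMIs of both genes in members lay in these nuclei.

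Over all members, these groups included, the genes that varied most had several roles. Of 759 genes found in at least 10 members of each library, 10 were named for the largest residual variance beyond depth in both, against a median of 1.31. Gm42418, a locus that overlaps ribosomal RNA, led them with residual variances of 17.6 and 27.4, and Csmd1, a rule gene, followed with 8.67 and 22.0. The others were Celf2 (6.69 and 10.3), a splicing regulator, Malat1 (6.23 and 6.75), a nuclear noncoding RNA, and Dmd (5.94 and 15.7), dystrophin. Slit3 (5.51 and 10.6), a secreted guidance cue, Gpc6 (5.16 and 15.5), a cell surface heparan sulfate proteoglycan, and Prkg1 (4.94 and 11.2), a cGMP-dependent kinase, came next. The last were Zbtb20 (5.28 and 4.87), a zinc finger repressor, and Auts2 (4.81 and 5.96), a nuclear regulator. Slit3 had UMIs in 57.1% and 74.5% of members, up to 30 and 320 in a nucleus, and stood at 0 and 318 CPM in the Pax7 group against 3925 and 3920 CPM in the remaining members. Dmd went the other way, at 6151 and 5208 CPM in the Pax7 group and 663 and 2157 CPM in the remaining members.

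**Figure D2:**
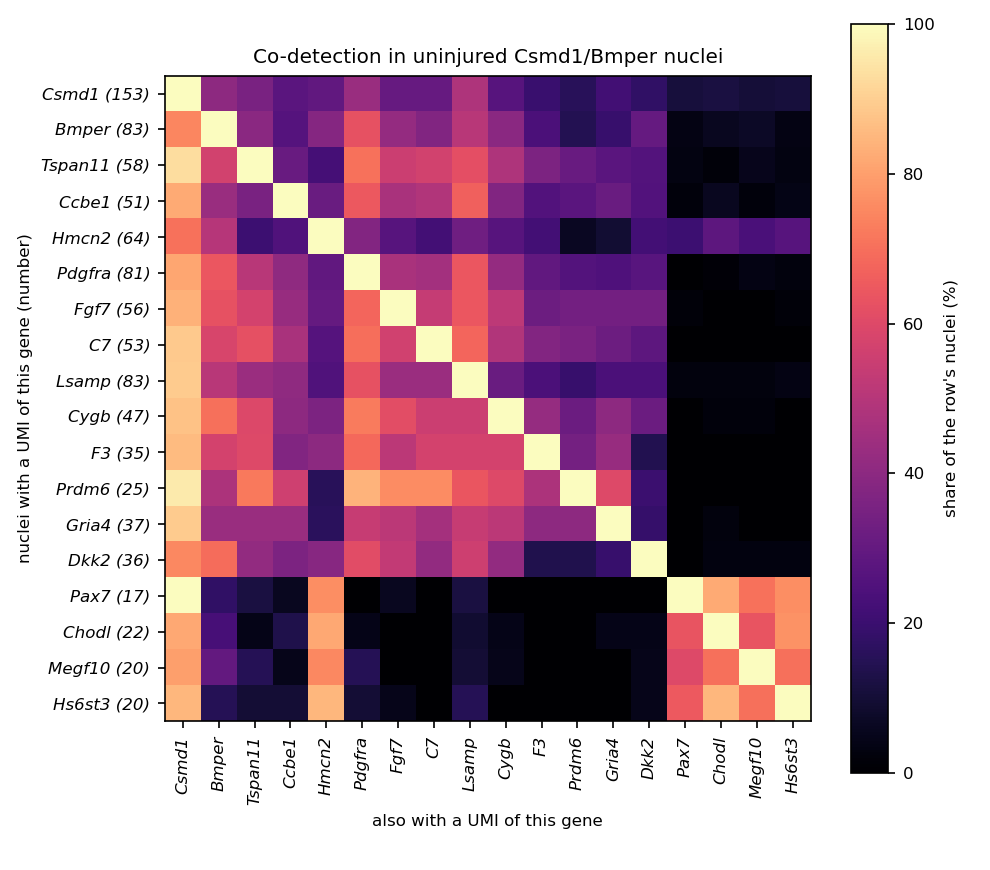
Share of the 188 uninjured members with a UMI of the row's gene (number in parentheses) that also had a UMI of the column's gene, in percent. Pax7, Chodl, Megf10 and Hs6st3 share nuclei with each other and with Csmd1 and Hmcn2, and seldom with Pdgfra, Fgf7, C7 or Lsamp.

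Which genes were found in the same nuclei is shown in the plot of co-detection, a description that depends on the depth of each nucleus. Of 17 members with a Pax7 UMI, 14 had Chodl, 12 had Megf10, 13 had Hs6st3 and 13 had Hmcn2. Of the same 17, 6 had Prrx1, while 0 had Pdgfra and 0 had C7. Of 58 members with a Tspan11 UMI, 54 had Csmd1, 41 had Pdgfra and 33 had Bmper, but 13 had Hmcn2. Prdm6 is a chromatin regulator of the smooth muscle lineage, and F3, tissue factor, starts coagulation. Of 25 members with Prdm6, 21 had Pdgfra, 18 had Tspan11, 12 had F3 and 15 had Cygb, the oxygen-binding cytoglobin of fibroblasts. Dkk2, a secreted modulator of Wnt signaling, was found in 36 members, of which 25 had Bmper and 22 had Pdgfra, while 5 had F3 and 5 had Prdm6. Of 35 members with F3, 20 had C7, 20 had Cygb and 5 had Dkk2. No test was made of these overlaps.

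Against all other filtered nuclei of the same libraries, the leading genes of members included Lsamp, Dkk2, F3 and the genes of the Pax7 group. Of 3930 genes that reached 50 CPM in the higher population of both libraries, 56, or 1.42%, were at least 4-fold higher in members in both, and 84, or 2.14%, at least 4-fold lower. Because the members came from these nuclei and were chosen on genes that vary together, the contrast is a description. The 15 leading genes split between the groups of members. Pax7, Chodl, Megf10 and Hs6st3, which encodes an enzyme that modifies heparan sulfate, had 98.6%, 98.2%, 97.4% and 99.3% of their member UMIs in the Pax7 group. Pax7, Chodl and Megf10 define that group, so their shares follow largely from its definition. Hs6st3 was not used to set it. The other 11 leading genes had at least 92.1% of their member UMIs in the remaining members.

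Among those 11, Dkk2 stood at 227 CPM in members of replicate 1 and 675 CPM in replicate 2, against 18.3 and 81.6 CPM in the other nuclei. It was higher in members in each library. Lsamp, a cell adhesion molecule, was at 1602 and 966 CPM against 112 and 100 CPM. F3 was at 75.6 and 191 CPM against 5.64 and 14.0, Prdm6 at 227 and 131 against 13.4 and 10.7, and Cygb at 106 and 126 against 1.41 and 12.1. Gria4, a glutamate receptor subunit, stood at 665 and 345 CPM against 38.1 and 42.7, and Inmt, a methyltransferase, at 121 and 56.9 against 14.1 and 5.17. Greb1l (75.6 and 166 CPM against 10.6 and 21.3), a cofactor of retinoic acid and nuclear receptor signaling, and the noncoding or predicted genes Gm42397 and E330013P04Rik were also in the list. In replicate 1 several of these levels rest on few UMIs (5 for F3, for Gm42397, for E330013P04Rik and for Greb1l).

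A gene of a list could be compared only if it reached 50 CPM in both libraries of members or of other nuclei. The direction of a list is therefore not independent of this filter, and the counts that follow are a description. Among the gene lists, general fibroblast genes were higher in members in both libraries for 8 of the 9 genes compared. Their median log2 difference from other nuclei was 1.78, against 0.01 over all genes compared. All 7 myogenic and all 6 endothelial markers compared were lower in members in both libraries (median log2 differences -2.81 and -3.45), and Pecam1 was used by the rule. Myogenic UMIs were nevertheless found in 19 of 35 and 139 of 153 members, at a summed 423 and 3772 CPM, led by Ttn, the giant muscle protein titin. Of complement genes, 6 of 7 were higher and 1 lower in members in both libraries, with a median of 1.09, and of basement membrane genes 8 of 10 were higher and 1 lower, with a median of 0.46. Lama2, the laminin chain of muscle and nerve basement membranes, stood at 4413 and 2647 CPM in members against 478 and 750 CPM in other nuclei.

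The comparison with the Pi16 nuclei asks how members differ from the adventitial progenitor class of the same tissue. Pi16 nuclei numbered 24 in replicate 1 and 86 in replicate 2, and 46 of the 110 also had a sum of 4 or more on the 5 markers, so the classes meet at a threshold and are not distinct by it. The rules set the classes apart on Pi16 and genes that vary with it, so this contrast too is a description. Of 3575 genes with at least 50 CPM in the higher population of both libraries, 15, or 0.42%, were at least 4-fold higher in members in both, and 15, or 0.42%, at least 4-fold lower. The median log2 difference over all of them was 0.02.

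**Figure D3:**
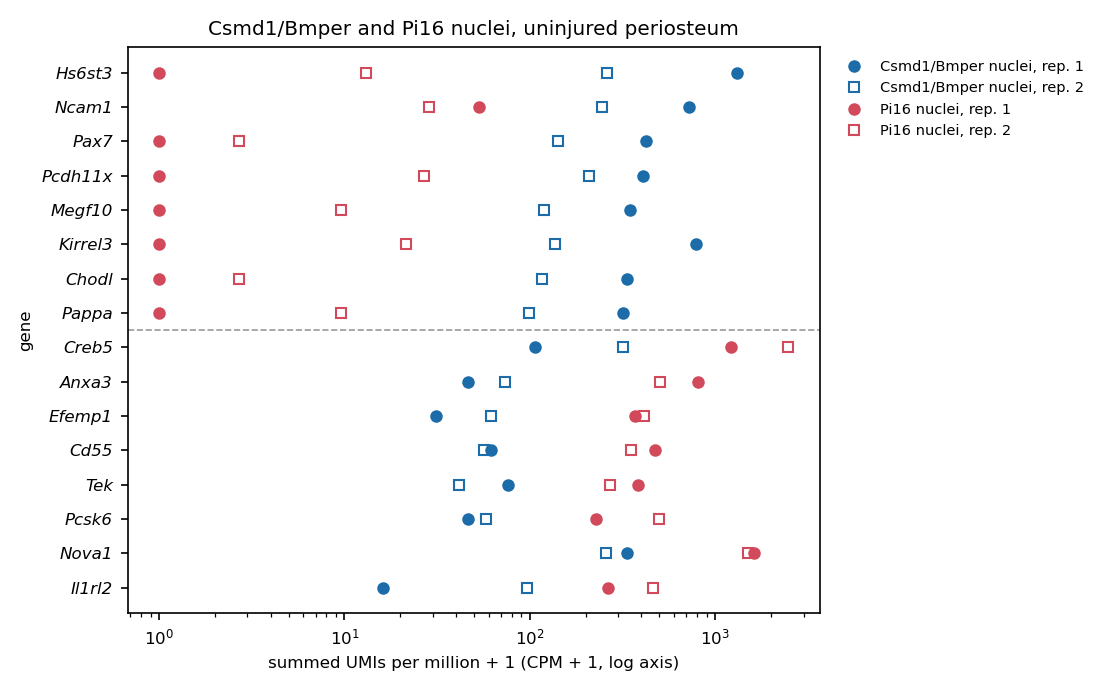
CPM + 1 on a log axis of the 8 genes with the largest difference in each direction between Csmd1/Bmper nuclei (blue) and Pi16 nuclei (red) of uninjured replicates 1 (filled circles) and 2 (open squares). Points at 1 are genes with 0 UMIs in the 24 Pi16 nuclei of replicate 1, and the dashed line separates genes higher in Csmd1/Bmper nuclei from genes higher in Pi16 nuclei.

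Most of the 8 leading genes higher in members had the greater part of their member UMIs in the Pax7 group. Hs6st3 stood at 1315 and 260 CPM in members against 0 and 12.0 CPM in Pi16 nuclei, at least 25.1-fold higher in replicate 1 (against 3 UMIs per library) and 21.7-fold in replicate 2. Pax7, Megf10, Chodl and Kirrel3, an adhesion molecule, had 77.4% to 98.6% of their member UMIs in the Pax7 group. Ncam1, the neural cell adhesion molecule, had 55.8% there and 13.8% in the Schwann group. The shares of Pax7, Megf10 and Chodl follow largely from the definition of the Pax7 group. The 2 leading genes with most of their member UMIs elsewhere were Pcdh11x and Pappa. Pcdh11x, a protocadherin, stood at 408 and 207 CPM against 0 and 25.7 CPM, with 76.4% of its member UMIs in the remaining members and 23.0% in the Schwann group. Pappa, a protease that frees insulin-like growth factors from their binding proteins, stood at 317 and 98.6 CPM against 0 and 8.57 CPM, with 99.0% in the remaining members.

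The genes lower in members were led by Creb5, a transcription factor of the CREB family, at 106 and 316 CPM against 1223 and 2474 CPM in Pi16 nuclei. Anxa3, an annexin, stood at 45.3 and 72.1 CPM against 804 and 501 CPM, and Efemp1, a fibulin of elastic tissue, at 30.2 and 60.7 against 367 and 413. Cd55, which protects cells from complement and marks adventitial fibroblasts, was at 60.5 and 55.6 CPM against 472 and 350. Nova1, a splicing factor, was at 332 and 255 CPM against 1625 and 1496. Tek, the angiopoietin receptor, stood at 75.6 and 40.5 CPM against 384 and 269, Pcsk6, a proprotein convertase, at 45.3 and 56.9 against 227 and 499, and Il1rl2, an interleukin receptor subunit, at 15.1 and 96.1 against 262 and 461. All 10 adventitial and progenitor genes that could be compared were lower in members in both libraries, with a median log2 difference of -1.85, and 2 of them, Cd55 and Anxa3, by at least 4-fold. These genes mark the class that Pi16 was used to choose, and most reach 50 CPM through it, so their direction is not independent of the choice of nuclei. Cd34, a sialomucin of progenitor and endothelial cells, stood at 106 and 168 CPM in members against 454 and 545 CPM, and Sema3c, a semaphorin, at 242 and 445 against 1188 and 1778. Without the Pax7 and Schwann groups 17 genes were at least 4-fold higher in both libraries and 6 lower. With the folds of 1 library alone, 134 were higher and 59 lower in replicate 2, and 115 and 131 in replicate 1.

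C7 differed in direction between the replicates in this comparison. It stood at 559 CPM in members and 17.5 CPM in Pi16 nuclei of replicate 1, and at 1163 CPM in members and 2996 CPM in Pi16 nuclei of replicate 2. In the general fibroblast list, 1 of 12 genes was higher in members than in Pi16 nuclei in both libraries and 7 lower, with a median log2 difference of -0.30. Fbn1, the microfibril protein fibrillin, was at 680 and 582 CPM in members against 3599 and 1524 CPM, and Fn1, fibronectin, at 106 and 513 against 594 and 1500. Of the 10 tenascin and injury matrix genes only 4 could be compared, of which 3 were higher and 1 lower in members in both libraries (median 2.57). Genes of both lists were compared only if they reached 50 CPM in 1 of the 2 populations in both libraries. Their direction is therefore not independent of that filter.

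Summed over members, ligands, inhibitors and receptors of the BMP pathway had UMIs, not all in the same group of members. Among ligands, Bmp5 stood at 60.5 and 269 CPM in members against 17.5 and 48.0 CPM in Pi16 nuclei, and Bmp6, with 88.8% of its member UMIs in the Pax7 group, at 514 and 195 CPM against 245 and 175. Gdf10, a relative of the BMPs, was at 15.1 and 101 CPM, and Bmp7 had 0 UMIs in both libraries. Among inhibitors, Chrdl1, a chordin-like protein, stood at 75.6 and 201 CPM against 69.9 and 154 CPM in Pi16 nuclei, and Bmper itself was a rule gene. Among receptors, Acvr2a was at 317 and 430 CPM against 69.9 and 331, and Bmpr1b at 227 and 135 against 34.9 and 147. The replicate 1 levels of Bmp5 and Bmpr1b in Pi16 nuclei lie under the 52.4 CPM that 3 UMIs set there. Of the 15 BMP pathway genes that could be compared with Pi16 nuclei, 7 were higher and 5 lower in both libraries, and 0 reached 4-fold.

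In the VEGF pathway, which Ccbe1 serves, Vegfc stood at 196 and 133 CPM in members against 34.9 and 65.1 CPM in Pi16 nuclei. Adamts3, the protease that works with Ccbe1 on VEGF-C, was at 60.5 and 113 CPM against 34.9 and 61.7. Nrp1, a coreceptor, was at 620 and 637 CPM against 157 and 267. All 3 were higher in members in both libraries, but in replicate 1 Vegfc and Adamts3 rested on 2 UMIs each in Pi16 nuclei, under the limit of 52.4 CPM that 3 UMIs set there. Of the 6 genes of the list that could be compared, 4 were higher and 1 lower in both libraries, and 0 reached 4-fold. The filter at 50 CPM limits this count in the same way. Among FGF ligands, Fgf7 was at 332 and 477 CPM against 175 and 327, and Fgf9 at 60.5 and 63.2 against 0 and 44.6. In replicate 1 Fgf9 rested on 4 UMIs in members, and the 0 in Pi16 nuclei allows up to 52.4 CPM. Of Wnt regulators, Dkk2 was at 227 and 675 CPM against 210 and 516 CPM, so its difference from other nuclei was shared by Pi16 nuclei. Sfrp4, a secreted Wnt inhibitor, was at 166 and 119 CPM against 69.9 and 343, higher in members of replicate 1 and lower in replicate 2. Lepr, the leptin receptor of marrow stroma, stood at 166 and 192 CPM against 17.5 and 49.7 CPM, and the 17.5 CPM lies under the same limit. Of the other markers used for skeletal progenitors, Mx1 had 0 UMIs in members of both libraries. Hsd11b1, which activates glucocorticoids, stood at 106 and 31.6 CPM and had 68.8% of its member UMIs in the Pax7 group. Osteogenic genes were led by Runx2, the transcription factor of osteoblasts, at 212 and 680 CPM, and Ibsp, Bglap, Ostn and Col22a1 had 0 UMIs in replicate 1 and 5.06, 3.79, 16.4 and 101 CPM in replicate 2.

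The same rule was then applied to the fracture libraries, to ask what nuclei with these UMIs look like after injury. It says nothing of whether they descend from the uninjured members. At day 3 the rule held 61 of 753 filtered nuclei, 8.10% (6.25% to 10.3%), in replicate 1 and 117 of 1720, 6.80% (5.66% to 8.10%), in replicate 2. Both shares lay between those of the uninjured replicates, and the difference was not tested. At day 5 it held 452 of 2423, 18.7% (17.1% to 20.3%), and at day 7 it held 106 of 1351, 7.85% (6.47% to 9.41%), with 1 library each. With a limit of 5% on mitochondrial UMIs and none on ribosomal UMIs, the rule held 131 of 3927 barcodes, 3.34%, in day 3 replicate 2 and 107 of 3444, 3.11%, at day 7, so these shares depend on which barcodes are counted as nuclei.

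**Figure D4:**
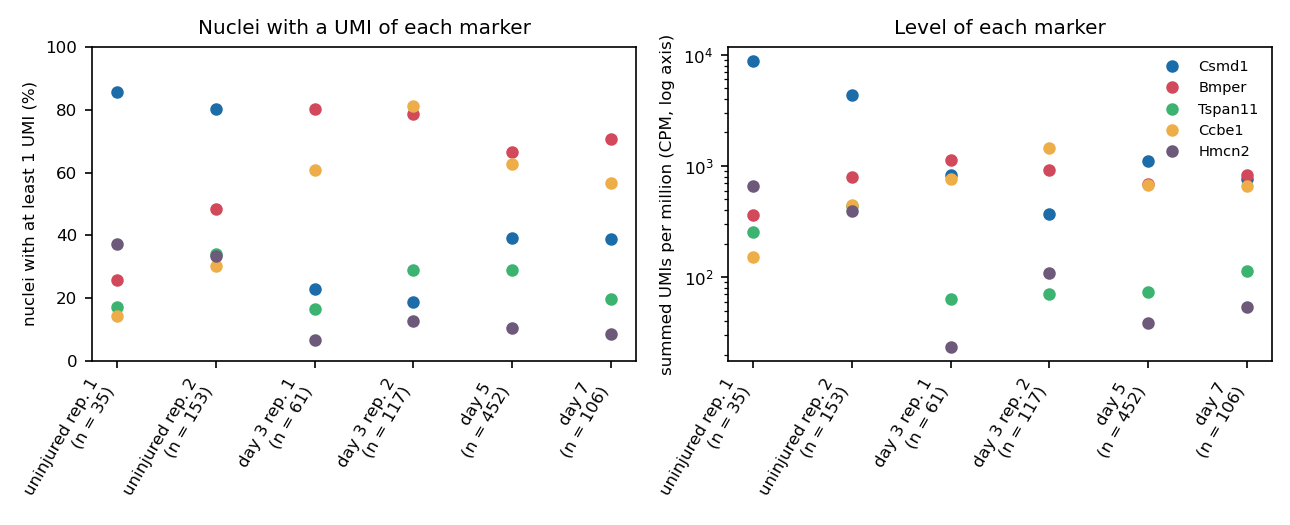
Share of nuclei that met the rule with at least 1 UMI of each of the 5 markers (left, percent) and level of each marker in them (right, CPM on a log axis), by library; n is the number of nuclei. Csmd1 and Hmcn2 are lower in all 4 fracture libraries than in both uninjured libraries, and Bmper and Ccbe1 are the markers found in most nuclei after fracture.

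The markers by which nuclei met the rule differed after fracture. Csmd1 had UMIs in 23.0% and 18.8% of the day 3 nuclei and stood at 827 and 371 CPM there, against 8736 and 4358 CPM in uninjured members. Bmper was found in 80.3% and 78.6% of the day 3 nuclei and Ccbe1 in 60.7% and 81.2%. Ccbe1 stood at 756 and 1462 CPM at day 3 against 151 and 448 CPM in uninjured members, and Hmcn2 at 23.8 and 109 CPM against 665 and 394. At days 5 and 7 Csmd1 stood at 1101 and 762 CPM, Bmper at 686 and 837 CPM, and Ccbe1 at 668 and 660 CPM. Fibroblast genes were in front in 50 of 61 and 112 of 117 nuclei at day 3, in 403 of 452 at day 5 and in 83 of 106 at day 7. The Pax7 group held 3 and 10 of the day 3 nuclei, and the Schwann group 1 and 0.

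UMIs were summed per library over the nuclei that met the rule, and day 3 was tested against uninjured with 2 libraries each by the quasi-likelihood test of edgeR. The 12 rule genes were left out. The filter on low counts keeps a gene with enough counts in either group. The direction of a gene list at day 3 is therefore not independent of this filter. Of 7675 genes tested, 315, or 4.1%, were called at a Benjamini-Hochberg adjusted p under 0.05. Of these 117 (1.52%) were higher at day 3 and 198 (2.58%) lower, and 607 and 750 had an unadjusted p under 0.05. Csmd1 alone was enough for the rule in 71.4% and 68.0% of uninjured members and in 18.0% and 12.8% of day 3 nuclei. In the results that follow, rose and fell describe a difference between these sets of nuclei. They do not describe a change within the same nuclei. How much of a difference goes with the marker that admitted a nucleus was not tested. The calls depended on uninjured replicate 2. Without it, with the single uninjured library of 35 nuclei assumed to vary like the others, 0 genes were called higher (614 at an unadjusted p under 0.05) and 5 lower (367). Without uninjured replicate 1, which also leaves libraries of 1 Cell Ranger version, 186 were higher and 366 lower, and without day 3 replicate 2 the test called 211 and 268.

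Without the Pax7 and Schwann groups, a setting added after the data had been seen, 130 genes were called higher and 240 lower. Of these 108 and 163 were calls of the whole. Of 57 named or listed called genes, 48 were called again in that setting, 3 (Col5a1, Lox and Col4a2) were not, and 6 no longer had the counts to be tested. Cadm2, Pex5l and Cdh19, genes of neurons and glia, were among those 6.

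**Figure D5:**
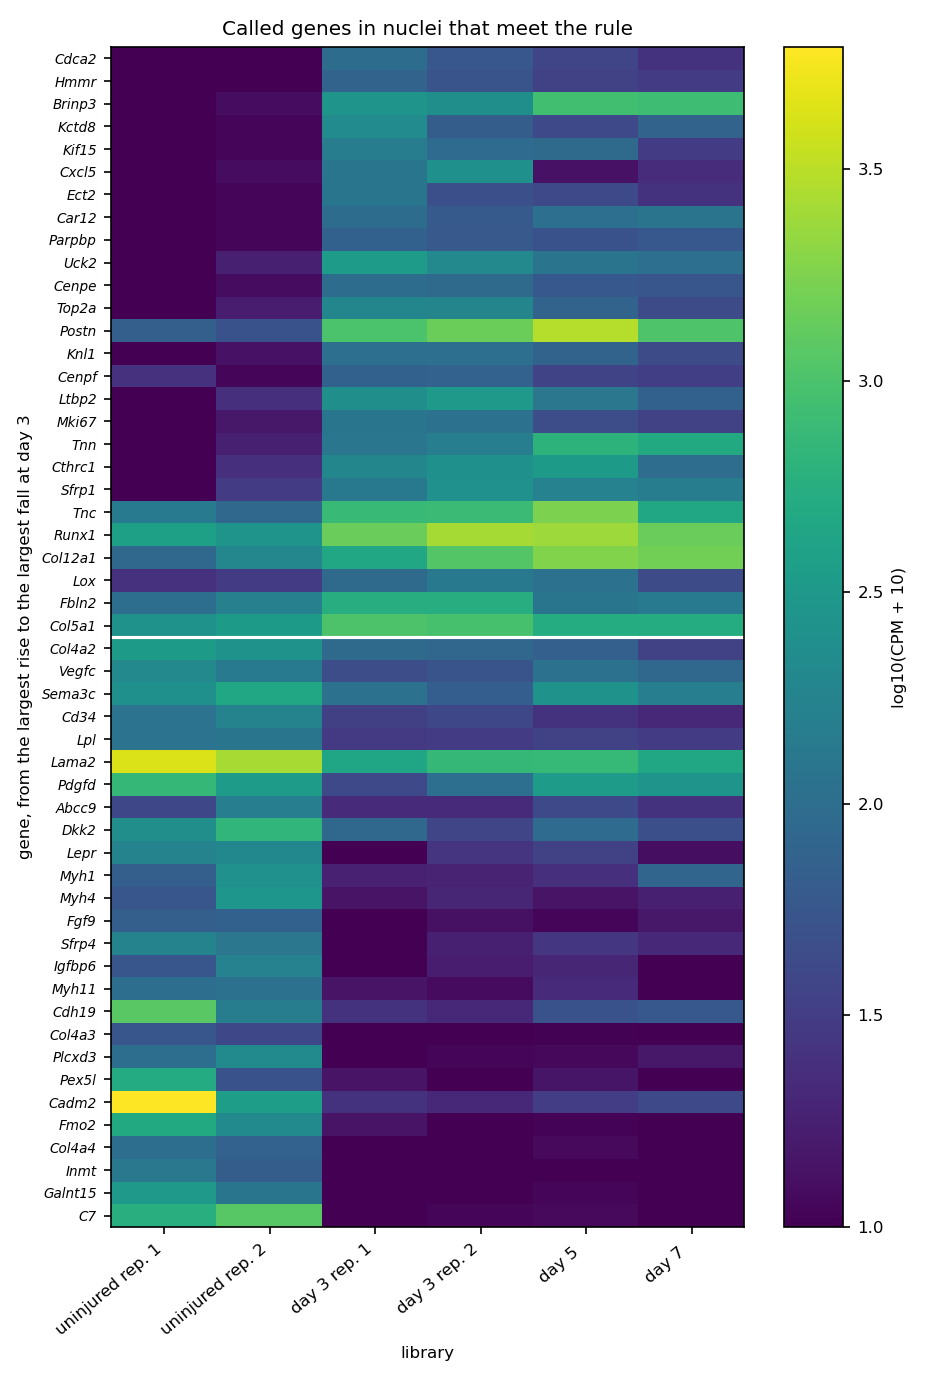
Level, as log10(CPM + 10), in each library of the nuclei that met the rule, for 52 of the 57 named or listed genes called at day 3, ordered by the log2 fold change; the white line separates genes that rose from genes that fell. Tnn, Brinp3 and Col12a1 are higher at days 5 and 7 than in both day 3 libraries, and C7, Galnt15, Inmt and Col4a4 are at or near 0 in all 4 fracture libraries.

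Mitotic genes rose at day 3. Of the 8 mitotic genes tested 6 were called higher and 0 lower, against 1.52% and 2.58% of all genes tested. Their median log2 fold change was 4.58 against 0.02 over all genes. Genes near 0 UMIs in uninjured members, such as Hmmr, passed the filter on low counts through day 3. The direction of this list is therefore not independent of that filter. Top2a, the topoisomerase that untangles replicated DNA, had 0 and 6.32 CPM in uninjured members and 182 and 175 CPM at day 3 (log2 fold change 4.90, standard error 0.63, adjusted p = 0.0109 by edgeR). Mki67, the proliferation antigen, went from 0 and 5.06 CPM to 111 and 98.8 CPM. Hmmr, which encodes a spindle and hyaluronan-binding protein, had 0 UMIs in both uninjured libraries and 67.3 and 43.4 CPM at day 3, at least 13.9-fold higher against 3 UMIs over the group. Cdca2, a chromatin regulator of mitosis, was also at 0 in both and stood at 87.1 and 46.7 CPM, at least 15.8-fold higher. Kif15, a spindle motor (142.5 and 84.7 CPM), Ect2, which drives cytokinesis (111 and 38.0), and Parpbp, a DNA repair regulator (63.3 and 49.9), had at most 1 UMI in uninjured members and were called higher. At day 5 Top2a stood at 66.8 CPM and Mki67 at 35.5 CPM, and at day 7 at 33.4 and 25.7 CPM.

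A part of the injury matrix genes also rose. Of the 9 tenascin and injury matrix genes tested 4 were called higher and 0 lower (median log2 fold change 1.80). Of the 15 genes of the study's extracellular matrix score, which include its fibrogenic score genes, 4 were higher and 0 lower (median 0.81). Over all genes tested, 1.52% were called higher and 2.58% lower. Both scores were chosen by the study on these samples and are not independent evidence of their direction. Postn, periostin, a matrix protein of healing tissue, stood at 60.5 and 40.5 CPM in uninjured members and at 978 and 1448 CPM at day 3 (log2 fold change 4.69, standard error 0.48, adjusted p = 0.00804 by edgeR). Tnc, tenascin C, went from 136 and 77.1 CPM to 768 and 790 CPM (3.01, standard error 0.45), and Tnn, tenascin N, from 0 and 7.58 to 115 and 144 CPM. Cthrc1, a secreted glycoprotein of activated fibroblasts, went from 0 and 13.9 CPM to 182 and 244 CPM, and Ltbp2, a microfibril protein related to TGF-beta binding proteins, from 0 and 13.9 to 238 and 316 CPM. Runx1, a transcription factor related to Runx2, was in the injury list and went from 378 and 271 CPM to 1417 and 2581 CPM (2.61, standard error 0.45, adjusted p = 0.0216 by edgeR). Col5a1, Col12a1, Lox, the collagen cross-linking enzyme, and the fibulin Fbln2 were also called higher. The fibrillar collagens Col1a1, Col1a2 and Col3a1 had higher mean levels at day 3 but adjusted p-values of 0.245, 0.209 and 0.365 by edgeR.

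Further named genes that rose had other roles. Brinp3, a secreted or membrane protein of neural tissue, went from 0 and 2.53 CPM to 265 and 237 CPM (6.61, standard error 0.67, adjusted p = 0.00804 by edgeR) and stood at 877 CPM at day 5 and 831 CPM at day 7. Cxcl5, a chemokine that attracts neutrophils, went from 0 and 2.53 CPM to 111 and 242 CPM and stood at 3.83 CPM at day 5 and 12.8 CPM at day 7. Both rose at day 3, and the later libraries differ in which of the pair is still high. Car12, a carbonic anhydrase, Kctd8, a subunit of GABA-B receptor complexes, and Uck2, a uridine kinase of nucleotide salvage (0 and 7.58 CPM against 340 and 193 CPM), made up the named list. Sfrp1, a secreted Wnt inhibitor, rose from 0 and 21.5 CPM to 123 and 246 CPM.

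Genes lower in the day 3 nuclei than in uninjured members included complement, basement membrane and adventitial genes. Over all genes tested, 2.58% were called lower and 1.52% higher. C7 was at 559 and 1163 CPM in uninjured members, 37 and 920 UMIs, and had 0 and 1 UMI at day 3 (adjusted p = 0.0045 by edgeR). It stayed at 1.74 CPM at day 5 and at 0 at day 7, and its call held without each of the 4 libraries in turn. It belongs to the complement list, of which 11 genes were tested, 0 rose, 2 fell and the median was -1.44. Of 15 basement membrane genes 4 fell and 0 rose (median -1.30): Lama2 went from 4413 and 2647 CPM to 428 and 703 CPM (-2.67, standard error 0.48), Col4a2 from 317 and 253 to 83.1 and 72.7 CPM, and Col4a3 and Col4a4 had 0 UMIs in both day 3 libraries, at least 12.3-fold and 26.0-fold lower. Of 8 adventitial and progenitor genes 3 fell and 0 rose (median -2.23), namely Cd34, Sema3c and Igfbp6, a binding protein of insulin-like growth factors. Igfbp6 went from 45.3 and 162 CPM to 0 and 6.51 CPM.

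The ligand and receptor lists had 5 to 20 genes tested each at day 3, so their shares are coarse. Over all genes tested, 4.1% were called in either direction. Of 11 TGF-beta genes tested 1, Ltbp2, rose and 0 fell (median log2 fold change 0.35). Of 9 Wnt genes tested 2 fell and 1 rose (median log2 fold change -0.46), and 1 gene fell and 0 rose among 7 FGF genes (-0.86), 6 VEGF genes (-0.90) and 5 PDGF genes (0.08). Dkk2 fell from 227 and 675 CPM to 75.2 and 28.2 CPM (-3.34, standard error 0.68, adjusted p = 0.0342 by edgeR). Sfrp4 fell from 166 and 119 CPM to 0 and 7.60 CPM, and Fgf9, a fibroblast growth factor, from 60.5 and 63.2 CPM to 0 and 3.26 CPM. Vegfc fell from 196 and 133 CPM to 35.6 and 43.4 CPM (adjusted p = 0.0455 by edgeR), a call lost without any of the 4 libraries. Pdgfd, a ligand of PDGF receptor beta, fell from 710 and 339 CPM to 31.7 and 94.4 CPM and stood at 338 CPM at day 5 and 267 CPM at day 7. Lepr fell from 166 and 192 CPM to 0 and 16.3 CPM. Of 20 BMP pathway genes tested 0 rose and 1 fell. Bmp5 (241 and 287 CPM at day 3), Bmpr1b (483 and 377 CPM) and Bmp1, a collagen-processing protease (325 and 366 CPM), had adjusted p-values of 0.751, 0.133 and 0.084 by edgeR.

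Galnt15, an enzyme that starts mucin-type sugar chains, and Inmt had 0 UMIs in both day 3 libraries, at least 49.8-fold and 24.2-fold lower than in uninjured members. Fmo2, a flavin monooxygenase, fell from 484 and 204 CPM to 3.96 and 0 CPM, and Plcxd3, a phospholipase-like protein, from 90.7 and 206 CPM to 0 and 1.09 CPM. For these 4 genes 97.2% to 100% of the uninjured UMIs lay in the remaining members. Cadm2, a synaptic adhesion molecule, behaved differently: 95.3% of its uninjured UMIs lay in the 10 nuclei of the Schwann group, and it stood at 0 and 11.4 CPM in the remaining uninjured members. Most UMIs of Pex5l (81.8%) and of the Schwann cell marker Cdh19 (84.6%) lay in the same nuclei. Of the 5 Schwann cell markers tested 2 were called lower, against 2.58% of all genes tested.

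Markers of other cells moved with these results. Over all genes tested, 2.58% were called lower at day 3. Myogenic markers summed to 423 and 3772 CPM in uninjured members and to 629 and 869 CPM at day 3, and 2 of the 7 tested, the muscle myosins Myh1 and Myh4, were called lower. Pericyte and smooth muscle markers summed to 725 and 569 CPM against 245 and 275 CPM, and 2 of 5, Abcc9 and Myh11, were called lower. Lpl, the 1 adipocyte marker tested, was also called lower. Without nuclei of 3 or more myogenic UMIs, 118 genes were called higher and 183 lower, 85 and 139 of them calls of the whole. Gm42418 held 45839 and 12439 CPM in uninjured members and 121762 and 7178 CPM at day 3. The part of these markers and of Gm42418 in the results was otherwise not tested.

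Genes of bone and cartilage formation gave no call at day 3, where 2 osteogenic, 3 chondrogenic and 3 tendon genes had the counts to be tested. Runx2 stood at 212 and 680 CPM in uninjured members and at 1508 and 1439 CPM at day 3 (log2 fold change 1.64, standard error 0.54, adjusted p = 0.141 by edgeR). In the single libraries of the later days, Col2a1, the collagen of cartilage, stood at 371 CPM at day 5 and 580 CPM at day 7, against 0 and 43.4 CPM at day 3 and 0 and 1.26 CPM in uninjured members. Acan, the cartilage proteoglycan aggrecan, was at 426 and 452 CPM at days 5 and 7, and Col11a1 at 2870 and 2908 CPM. Chondrogenic markers were in front in 29 of 452 nuclei at day 5 and 16 of 106 at day 7. Postn reached 2974 CPM at day 5 and 1044 CPM at day 7, and Tnn 619 and 490 CPM. With 1 library each, these days have no replicate check.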

How the data were processed

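The values are raw counts of UMIs by gene and barcode, 1 matrix a library, which the authors deposited without normalization and made with Cell Ranger (6.0.0 for uninjured replicate 1 and days 5 and 7, 7.1.0 for the others) on mm10 with intronic and exonic reads. Per the labels nuclei were sorted on a DNA dye. Counts were limited to 30406 genes listed in every library. Barcodes were kept with 200 to 5000 genes when mt- genes held under 2% and Rps and Rpl genes under 1.5% of their UMIs. Scrublet (expected rate 6%) marked 0.155% to 1.61% of nuclei per library, which is too few in most libraries for it to be relied on, and doublets were kept. CPM came from UMIs summed over nuclei, with exact Poisson intervals, and log2 differences between populations used CPM + 10. Day 3 was tested against uninjured with edgeR 4.0.16 (R 4.3.3; filterByExpr, TMM, glmQLFit, glmQLFTest, Benjamini-Hochberg). Standard errors are the log2 fold change over the square root of F. Python 3.11.15 and scanpy 1.11.5 were used for the rest, and coordinates follow GENCODE mouse release 21.

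The members, the 29 gene lists and the comparisons were chosen with earlier results of these data known. Named genes were the 12 rule genes, the 15 leading genes against other nuclei and the 8 in each direction against Pi16 nuclei by the smaller fold of the 2 libraries at 50 CPM or more, the 10 largest called changes each way at day 3 with 50 CPM or more and 1 direction in all 4 pairs of libraries, the 10 most variable genes, and list members at 50 CPM or more, called, or at 0. Alternatives were other limits of the rule and filters, depth, doublets, normalization, DESeq2 1.42.0 and each library left out. On counts simulated for the day 3 comparison (7093 genes), 167 of the 193 genes given a log2 change of 3 were called, 86.5%, with 8 false calls. All genes were simulated with 1 dispersion (0.116), equal in every library. These rates hold for that setting and do not measure the error rates of the real libraries, whose spread may be uneven. Libraries have no replicate numbers in the labels, and those used here follow accession order. A few genes that met these rules are not reported here.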

Additional observations from a re-analysis of the deposited data

How the results depend on the processing

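The calls at day 3 rested on uninjured replicate 2. Leaving out 1 library at a time gave 0 to 211 genes called higher and 5 to 366 called lower, against 117 and 198, and the lowest of both counts came without uninjured replicate 2, where the median of all genes moved to 0.21 on the log2 scale. Of 841 values of 57 followed genes under the alternatives in which they could be tested, 740 kept their call, 101 lost it, 41 of them without that library, and 0 reversed. Nuclei thinned to 1000 UMIs before summing gave 60 higher and 90 lower among 2191 genes tested, and no filter on low counts gave 287 and 453 among 18161. Members with fibroblast genes in front, a setting added after the data had been seen, gave 180 higher. DESeq2 called 88 and 174, 80 and 145 of them shared.

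Against Pi16 nuclei, 15 genes were at least 4-fold higher and 15 lower. A 2-fold limit gave 114 and 111, and 1 library alone 115 to 134 higher and 59 to 131 lower. Without nuclei of 3 or more myogenic UMIs 27 were higher. Members with fibroblast genes in front gave 9 lower, and those without the Pax7 and Schwann groups 6. The share of nuclei that met the rule at day 3 (mean of 2 libraries), day 5 and day 7 was 9.05%, 21.7% and 11.8% with 3 UMIs or more of the 5 markers, 5.86%, 14.9% and 4.96% with 6 or more, and 8.6%, 16.5% and 10.7% with the rule on nuclei thinned to 1000 UMIs. Counting only nuclei with fibroblast genes in front gave 16.6% at day 5 and 6.14% at day 7. The cause of these changes was not tested. No paired analysis was made, because each library is a pool of tibias and neither the labels nor the study's methods pair the libraries. The 35 members of uninjured replicate 1 limit the precision of low genes.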
